A study of Mus musculus with 116 samples.

Results

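Socs1, Cish, Pim1, Pim2, Id1, Bcl2l1 and Ccnd2 are genes described as direct targets of STAT5, a transcription factor that interleukin-3 (IL-3) switches on. They were chosen by name, as every probe whose gene symbol on the array is one of the 7. They take up 8 of 21797 tested probes and 7 of 15097 gene symbols, because Ccnd2 has 2 probes. The probes are identified by the sequence records the array lists: NM_009896 for Socs1 (chromosome 16), NM_009895 for Cish (chromosome 9), NM_008842 for Pim1 (chromosome 17), L41495 for Pim2 (chromosome X), U43884 for Id1 (chromosome 2), NM_009743 for Bcl2l1 (chromosome 2), and NM_009829 and AK011429 for Ccnd2 (chromosome 6).

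The receptors for IL-3 and GM-CSF share a signalling chain, the common beta chain. Ligand binding lets the attached kinase JAK2 phosphorylate STAT5, which then pairs up, enters the nucleus and binds DNA at a short palindromic motif. Socs1 and Cish encode inhibitors that feed back on the receptor and its kinase, Pim1 and Pim2 encode survival kinases, Id1 encodes an inhibitor of helix-loop-helix transcription factors, Bcl2l1 encodes the anti-apoptotic protein Bcl-xL, and Ccnd2 encodes cyclin D2, which drives entry into the cell cycle.

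The cells are FDB1, a mouse myeloid line that needs added growth factor. All cultures were grown in medium with 10% serum and 500 U/mL of mouse IL-3, which was washed out at 0 hours. V449E cells and FI-Delta cells are FDB1 cells that express a mutant receptor of that name, and after the wash they received no factor. Unmodified FDB1 cells, called parental at 0 hours and GM-CSF afterwards, received 500 U/mL of mouse GM-CSF instead. RNA was taken at the time of the wash (0 hours) and 6, 12, 24, 48 or 72 hours after it, which gives 18 conditions, with 2 replicates in each. At 0 hours every line had therefore been growing in IL-3, and the parental RNAs serve as the 0-hour samples of the GM-CSF course. The labels give no vector, promoter or number of clones for either mutant line, and whether a replicate was a culture of its own is not stated, so a p-value speaks only for the spread among these RNAs.

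Each array compared 2 RNAs of one replicate number, and each was repeated with the dyes exchanged, in 58 such pairs covering 28 comparisons. Values below are log2 levels of an RNA relative to the mean of the 18 RNAs of its replicate, so a level of 0 is that mean and not absence. Differences are log2 differences between conditions with the standard error (SE) of a limma fit over all probes, on n = 2 RNAs per condition. A probe was called where the Benjamini-Hochberg adjusted p over all 21797 probes fell under 0.05. The log base and the direction (Cy5 over Cy3) are likely but not stated in the files. Ratios carry no intensity, so whether a gene or a myeloid marker was present at all could not be checked, and levels cannot be compared between genes. The residual SDs of the 8 member probes ranged from 0.148 to 0.294, which put them at or above the 89.7th percentile of all probes.

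After IL-3 was washed out, 5 of the 7 genes were called lower within 12 hours in one or both mutant lines. At 12 hours the means of these 5 genes were also below those at 0 hours in GM-CSF, without a call. Which members were called after 12 hours differed between the lines, but no member's change from 0 hours was called as different between lines. All comparisons of a line with 0 hours share its 0-hour RNAs. In V449E cells 2 of 8 probes were called at 6 hours, where 0.702% of all probes were called and 0.312% were lower, and 5 of 8 at 12 hours, where 1.28% were called and 0.739% were lower. In FI-Delta cells 2 of 8 were called at 6 hours (0.725% of all probes called, 0.427% lower) and 4 of 8 at 12 hours (5.06% called, 3.28% lower). All 13 of these calls were lower. None of the 8 was called in GM-CSF at 6 or 12 hours by limma, where 0.440% and 2.92% of all probes were called and 1 and 3 members had an unadjusted p under 0.05.

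At 24 hours no member was called in any line. Of all probes, 1.45% were called in V449E cells, 1.42% in FI-Delta cells and 1.10% in GM-CSF, and 2, 2 and 1 members had an unadjusted p under 0.05 in these lines. In V449E cells no member was called at 48 hours (0.00459% of all probes) or 72 hours (0% of all probes), and none had an unadjusted p under 0.05. In FI-Delta cells 2 of 8 probes were called at 48 hours, both higher (4.44% of all probes called, 2.43% higher), and 3 of 8 at 72 hours, 2 higher and 1 lower (15.3% called, 6.75% higher and 8.51% lower). In GM-CSF 1 probe was called at 48 hours (1.32% of all probes called, 0.748% higher) and 1 at 72 hours (5.47% called, 2.92% higher), both times a higher Ccnd2.

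**Figure D1:**
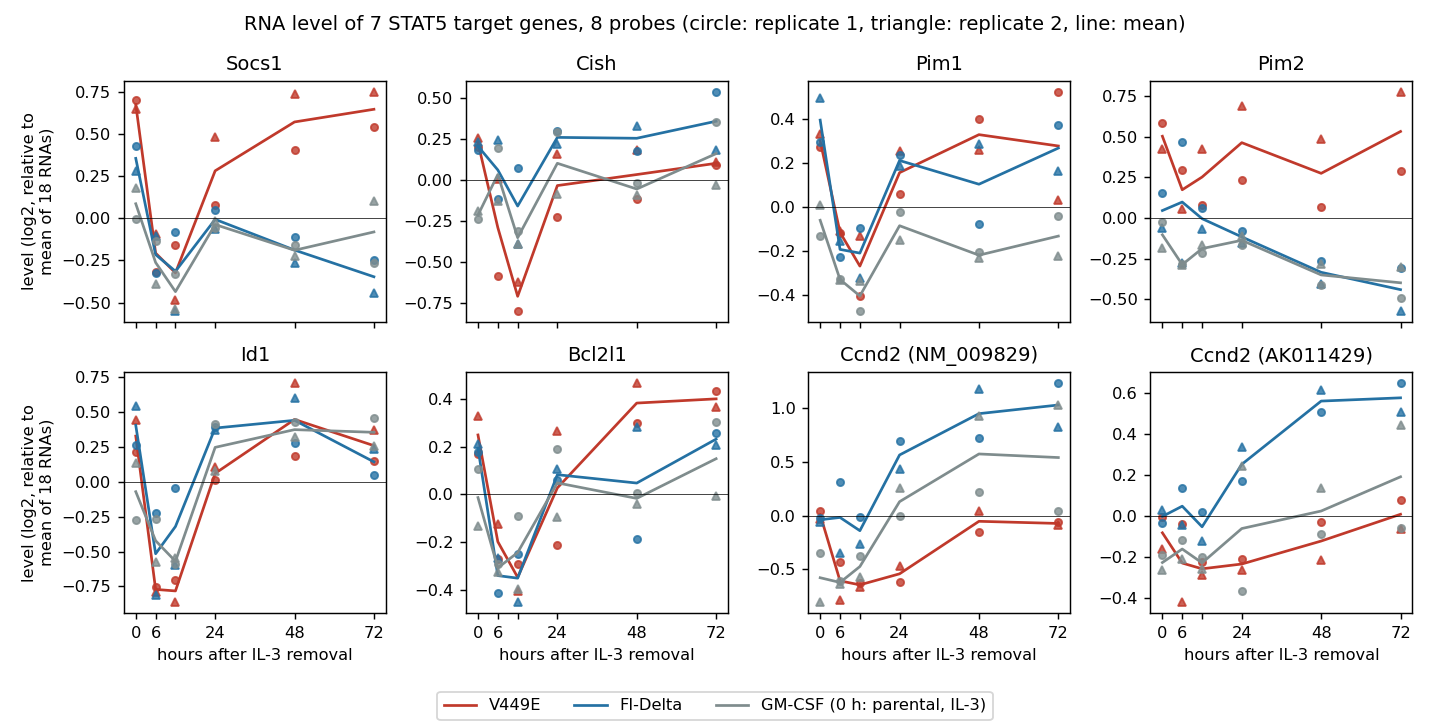
Each panel plots 1 probe: the log2 level relative to the mean of the 18 RNAs of the replicate (vertical axis) against hours after IL-3 removal (horizontal axis), with a circle for replicate 1, a triangle for replicate 2 and a line through the means, for V449E, FI-Delta and GM-CSF cells (parental at 0 hours). The means of Socs1, Pim1, Id1 and Bcl2l1 at 6 and 12 hours lie below those at 0 hours in all 3 lines, Socs1 and Pim2 end highest in V449E cells, and Ccnd2 ends highest in FI-Delta cells.

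The median over the 8 members shows the same course beside a median over all probes that stayed within 0.0129 of 0 in each of these comparisons. In V449E cells the members' median log2 difference from 0 hours was -0.48 at 6 hours, -0.63 at 12 hours, -0.24 at 24 hours, -0.05 at 48 hours and -0.03 at 72 hours. In FI-Delta cells it was -0.34, -0.46, -0.07, -0.06 and -0.04 at the same times, and in GM-CSF -0.23, -0.18, 0.11, 0.08 and 0.27. All 8 probes were below 0 at 12 hours in V449E cells and in FI-Delta cells, and 7 of 8 were below 0 in GM-CSF.

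**Figure D2:**
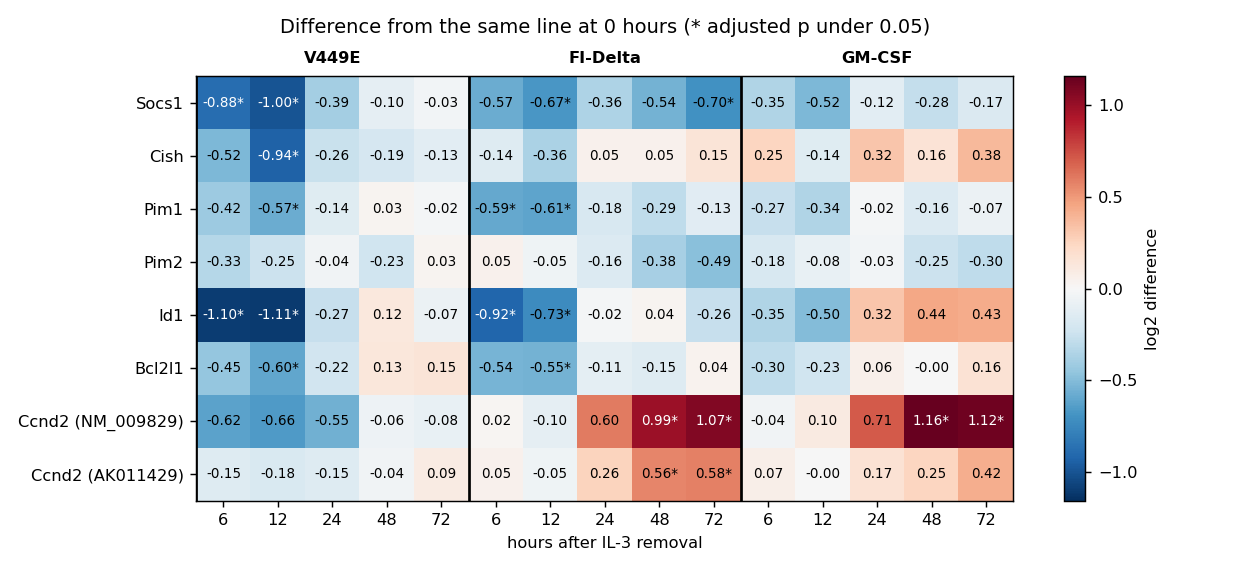
The colour and number in each cell give the log2 difference of a probe (rows) from 0 hours of the same line at each time (columns, hours after IL-3 removal), and a star marks an adjusted p under 0.05. The darkest blue cells lie at 6 and 12 hours, reaching -1.11 for Id1 in V449E cells, and the darkest red cells are the Ccnd2 probe NM_009829 at 48 and 72 hours in FI-Delta and GM-CSF cells.

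Socs1, the feedback inhibitor that blocks JAK kinase activity, fell early in V449E cells and then returned. Its levels in V449E cells read 0.70 and 0.65 at 0 hours, -0.32 and -0.09 at 6 hours, -0.16 and -0.49 at 12 hours, 0.08 and 0.48 at 24 hours, 0.40 and 0.74 at 48 hours, then 0.54 and 0.75 at 72 hours. Every value at 6 and 12 hours lay below both values at 0, 48 and 72 hours. At 6 hours Socs1 was 1.84-fold lower than at 0 hours (log2 difference -0.88 ± 0.16, SE, limma adjusted p = 0.00698), and at 12 hours by -0.997 ± 0.16 (adjusted p = 0.00295). At 72 hours it was 1.96-fold higher than at 12 hours (0.97 ± 0.16, adjusted p = 0.00289), and it differed from 0 hours by -0.03 with a 95% interval of -0.36 to 0.31.

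In FI-Delta cells Socs1 was still lower at 72 hours. Its levels there read 0.43 and 0.28 at 0 hours, -0.33 and -0.11 at 6 hours, -0.08 and -0.55 at 12 hours, 0.05 and -0.06 at 24 hours, -0.11 and -0.26 at 48 hours, then -0.25 and -0.44 at 72 hours. Both 0-hour values were above all 10 later ones. It was 1.59-fold lower at 12 hours (-0.67 ± 0.16, adjusted p = 0.0185) and 1.63-fold lower at 72 hours (-0.70 ± 0.16, adjusted p = 0.00436) than at 0 hours. In GM-CSF Socs1 read -0.33 and -0.54 at 12 hours, then -0.26 and 0.10 at 72 hours, against -0.01 and 0.18 in parental cells at 0 hours, and no time was called (the 12-hour difference was -0.52, adjusted p = 0.0846, and -0.52 with adjusted p = 0.0491 when levels were weighted by their number of arrays).

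The arrays that set these RNAs directly against each other can be read one by one. With the 12-hour V449E RNA in Cy5 and its 0-hour RNA in Cy3, Socs1 read -0.89 and -0.97 in replicates 1 and 2, and with the dyes exchanged it read 0.92 and 1.26. All 4 arrays therefore put the 12-hour RNA lower, by similar amounts in both dye orientations. Over the whole series both arrays of a Socs1 pair pointed the same way in 43 of 58 pairs.

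Leaving out 1 RNA ended most of the Socs1 calls against 0 hours while the sign held. Such a fit leaves 1 RNA in a condition. Without either 0-hour RNA of a mutant line, fewer of all probes were called at 6 and 12 hours too, so these losses are not particular to the members. The V449E calls at 6 hours (-0.99 to -0.76) and at 12 hours (-1.16 to -0.83) were lost without either V449E 0-hour RNA, and also without V449E 6 hours replicate 1 or V449E 12 hours replicate 2. In FI-Delta cells the 12-hour call (-0.92 to -0.42) was lost with arrays scaled to equal spread (-0.60, adjusted p = 0.0582) and without either 0-hour RNA or 12 hours replicate 2, and the 72-hour call (-0.79 to -0.57) without 0 hours replicate 1 or 72 hours replicate 2. The rise at 72 against 12 hours in V449E cells (0.80 to 1.14) was lost without V449E 12 hours replicate 2.

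Cish, the inhibitor that occupies STAT5 docking sites on the receptor, was called low only in V449E cells at 12 hours among the 15 comparisons with 0 hours. Its levels in V449E cells read 0.20 and 0.25 at 0 hours, -0.58 and 0.00 at 6 hours, -0.80 and -0.62 at 12 hours, -0.22 and 0.16 at 24 hours, -0.12 and 0.19 at 48 hours, then 0.09 and 0.11 at 72 hours. The 12-hour values were the 2 lowest of the 36 Cish levels. The 12-hour level was 1.92-fold lower than that at 0 hours (-0.94 ± 0.19, adjusted p = 0.0125), and at 72 hours it was 1.76-fold higher than at 12 hours (0.81 ± 0.19, adjusted p = 0.0268). Without any 1 of the 4 RNAs behind it neither call passed, with differences of -1.04 to -0.85 at 12 hours (V449E 0 hours replicates 1 and 2, 12 hours replicates 1 and 2) and of 0.72 to 0.91 at 72 against 12 hours (12 hours replicates 1 and 2, 72 hours replicates 1 and 2).

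In FI-Delta cells Cish was 0.07 and -0.39 at 12 hours, against 0.18 and 0.23 at 0 hours, a difference of -0.36 ± 0.19 that was not called on fitted levels (adjusted p = 0.303) and was called from the direct pairs alone (-0.52, adjusted p = 0.0339). In GM-CSF it was -0.31 and -0.39 at 12 hours, against -0.24 and -0.19 in parental cells at 0 hours, and differed by -0.14 ± 0.19. The spread between the FI-Delta replicates at 12 hours was larger than the difference from 0 hours of replicate 1.

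The promoter of Cish is shown because it was the only member promoter in the RefSeq table (mouse build GRCm38.p6) that held the core STAT5 motif. The motif searched was TTCNNNGAA, which reads the same on both strands, in the 250 bases before and 50 bases after the start of each gene. The stretch below runs from 180 bases before the Cish start to base 20 of the transcript, at chr9:107296479-107296678 on the plus strand, with the motif matches in capitals.
Cish: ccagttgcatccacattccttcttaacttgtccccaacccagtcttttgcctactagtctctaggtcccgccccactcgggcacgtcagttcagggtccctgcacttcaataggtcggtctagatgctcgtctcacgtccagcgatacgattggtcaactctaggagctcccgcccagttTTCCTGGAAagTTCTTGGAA
The matches TTCCTGGAA and TTCTTGGAA lie at bases 1 to 9 and 12 to 20 of the transcript as RefSeq starts it. Of 32851 promoters of this length 8.3% held at least 1 match and 0.457% held at least 2. The promoters listed for Socs1, Pim1, Pim2 and Bcl2l1 held none of these letters in this window, and Id1 and Ccnd2 were not matched in the table. A match is a description of the sequence and was not measured as a binding site.

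Pim1, a serine/threonine kinase that supports survival and growth, fell early in both mutant lines. In V449E cells Pim1 read -0.12 and -0.11 at 6 hours, then -0.41 and -0.13 at 12 hours, against 0.27 and 0.33 at 0 hours. In FI-Delta cells it read -0.23 and -0.16 at 6 hours, then -0.10 and -0.33 at 12 hours, against 0.30 and 0.49 at 0 hours. No early value overlapped the 0-hour values of its line. The 12-hour difference was -0.57 ± 0.13 in V449E cells (adjusted p = 0.0348). In FI-Delta cells the differences were -0.59 ± 0.13 at 6 hours (adjusted p = 0.0375) and -0.61 ± 0.13 at 12 hours (adjusted p = 0.0104).

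By 72 hours Pim1 was 0.52 and 0.03 in V449E cells and 0.37 and 0.16 in FI-Delta cells. These levels were higher than those at 12 hours by 0.55 ± 0.13 in V449E cells (adjusted p = 0.0373) and by 0.48 ± 0.13 in FI-Delta cells (adjusted p = 0.0470). In GM-CSF it was -0.47 and -0.34 at 12 hours, against -0.13 and 0.01 in parental cells at 0 hours, and that difference of -0.34 ± 0.13 was not called (adjusted p = 0.177).

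The early Pim1 calls were lost on print run 1 arrays alone in V449E cells at 12 hours (-0.55, adjusted p = 0.0737) and in FI-Delta cells at 6 hours (-0.59, adjusted p = 0.0725), and the V449E call also from direct pairs alone. They were also lost without any 1 of the 4 RNAs for V449E at 12 hours (-0.73 to -0.42) and FI-Delta at 6 hours (-0.72 to -0.51), and without FI-Delta 0 hours replicate 2 or 12 hours replicate 2 for FI-Delta at 12 hours (-0.73 to -0.48). The 72-hour rise in V449E cells (0.29 to 0.80) was lost without 12 hours replicate 1, 12 hours replicate 2 or 72 hours replicate 1, and so was that in FI-Delta cells (0.35 to 0.60) without the RNAs of the same times and numbers.

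Pim2, the related kinase, was not called against 0 hours in any line. In V449E cells its levels read 0.58 and 0.42 at 0 hours, 0.30 and 0.05 at 6 hours, 0.08 and 0.43 at 12 hours, 0.24 and 0.69 at 24 hours, 0.07 and 0.48 at 48 hours, then 0.29 and 0.78 at 72 hours. In FI-Delta cells they read 0.15 and -0.06 at 0 hours, 0.47 and -0.27 at 6 hours, 0.06 and -0.07 at 12 hours, -0.08 and -0.15 at 24 hours, -0.26 and -0.41 at 48 hours, then -0.31 and -0.57 at 72 hours. All 12 V449E values were above the mean of their replicate. The 4 FI-Delta values at 48 and 72 hours were below both FI-Delta values at 0 hours, and the 72-hour difference was -0.49 ± 0.19 (adjusted p = 0.0958). That difference was called from the direct pairs alone (-0.71, adjusted p = 0.00848) and with levels weighted by number of arrays (-0.49, adjusted p = 0.0217).

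Id1, which keeps helix-loop-helix factors from binding DNA, had the largest early falls among the members in both mutant lines. In V449E cells Id1 read -0.75 and -0.79 at 6 hours, then -0.70 and -0.86 at 12 hours, against 0.21 and 0.44 at 0 hours. In FI-Delta cells it read -0.22 and -0.81 at 6 hours, then -0.05 and -0.59 at 12 hours, against 0.27 and 0.55 at 0 hours. The V449E replicates lay close together, whereas in FI-Delta cells replicate 2 was lower than replicate 1 at both times.

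The Id1 level in V449E cells was 2.14-fold lower than at 0 hours at 6 hours (-1.10 ± 0.20, adjusted p = 0.00559) and 2.16-fold lower at 12 hours (-1.11 ± 0.20, adjusted p = 0.00523). In FI-Delta cells it was 1.89-fold lower at 6 hours (-0.92 ± 0.20, adjusted p = 0.0274) and 1.65-fold lower at 12 hours (-0.73 ± 0.20, adjusted p = 0.0338). Id1 then rose in V449E cells. At 72 hours it read 0.15 and 0.37 there, a level 2.06-fold above that at 12 hours (1.04 ± 0.20, adjusted p = 0.00810).

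In GM-CSF Id1 read -0.59 and -0.55 at 12 hours, then 0.45 and 0.26 at 72 hours, against -0.27 and 0.13 in parental cells at 0 hours. Neither time was called against 0 hours, with differences of -0.50 ± 0.20 (adjusted p = 0.184) and 0.43 ± 0.20 (adjusted p = 0.273). The 72-hour level was 1.90-fold above the 12-hour level (0.92 ± 0.20, adjusted p = 0.00591).

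The Id1 calls against 0 hours were lost without either 0-hour RNA of the line and without V449E 6 hours replicate 1 (6-hour differences of -1.13 to -0.86), V449E 12 hours replicate 2 (-1.24 to -0.98), FI-Delta 6 hours replicate 2 (-1.26 to -0.62) or FI-Delta 12 hours replicate 2 (-0.998 to -0.42). The rise at 72 against 12 hours was lost in V449E cells without 12 hours replicate 2 or 72 hours replicate 2 (0.91 to 1.17), and in GM-CSF without 72 hours replicate 1 (0.81 to 1.03). On print run 1 arrays alone the FI-Delta 6-hour difference was -0.92 with an adjusted p of 0.0585, and with arrays scaled to equal spread the FI-Delta 12-hour difference was -0.62 with an adjusted p of 0.0970.

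Bcl2l1, the survival gene, was lower at 12 hours in both mutant lines and rose by 72 hours. In V449E cells it was -0.29 and -0.41 at 12 hours, against 0.17 and 0.33 at 0 hours (-0.60 ± 0.15, adjusted p = 0.0480). In FI-Delta cells it was -0.25 and -0.45 at 12 hours, against 0.18 and 0.21 at 0 hours (-0.55 ± 0.15, adjusted p = 0.0349). Both 12-hour values lay below both 0-hour values in each line. At 72 hours it was 0.44 and 0.37 in V449E cells, above 12 hours by 0.75 ± 0.15 (adjusted p = 0.0123), and 0.26 and 0.21 in FI-Delta cells, above 12 hours by 0.58 ± 0.15 (adjusted p = 0.0287). In GM-CSF it was -0.09 and -0.40 at 12 hours, against 0.11 and -0.13 in parental cells at 0 hours, and these values overlapped.

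The V449E 12-hour Bcl2l1 call was lost on print run 1 arrays alone (-0.62, adjusted p = 0.0649) and with arrays scaled to equal spread, and without any 1 of the 4 RNAs (V449E 0 hours replicates 1 and 2, 12 hours replicates 1 and 2; -0.66 to -0.54). The FI-Delta 12-hour call was lost with scaled arrays, and without either FI-Delta 0-hour RNA or 12 hours replicate 2 (-0.66 to -0.42). The rises at 72 against 12 hours were lost without V449E 12 hours replicate 2 or 72 hours replicate 1 (0.69 to 0.81), and without FI-Delta 12 hours replicate 2, 72 hours replicate 1 or 72 hours replicate 2 (0.47 to 0.70). At 6 hours Bcl2l1 was not called in FI-Delta cells on the reported fit (-0.54, adjusted p = 0.105) but was called from the direct pairs alone (-0.63, adjusted p = 0.00941).

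Ccnd2, the cyclin gene, was the only member called higher than at 0 hours. Its level rose late in FI-Delta cells and in GM-CSF. In V449E cells NM_009829 read 0.05 and -0.03 at 0 hours, then -0.43 and -0.79 at 6 hours. It read -0.63 and -0.67 there at 12 hours and -0.62 and -0.47 at 24 hours, all below both 0-hour values. AK011429 read -0.23 and -0.29 in V449E cells at 12 hours, against -0.004 and -0.16 at 0 hours. No V449E difference from 0 hours was called on either probe. The NM_009829 probe in FI-Delta cells read -0.02 and -0.06 at 0 hours, 0.31 and -0.35 at 6 hours, -0.02 and -0.27 at 12 hours, 0.69 and 0.44 at 24 hours, 0.72 and 1.18 at 48 hours, then 1.24 and 0.83 at 72 hours. All 6 values from 24 hours on were above all 6 earlier values. The AK011429 probe of the same gene read -0.03 and 0.03 at 0 hours, 0.51 and 0.61 at 48 hours, then 0.65 and 0.51 at 72 hours.

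At 72 hours Ccnd2 in FI-Delta cells was 2.10-fold above 0 hours on NM_009829 (1.07 ± 0.26, adjusted p = 0.00560) and above it on AK011429 too (0.58 ± 0.16, adjusted p = 0.0130). At 48 hours the differences were 0.99 ± 0.26 (adjusted p = 0.0271) and 0.56 ± 0.16 (adjusted p = 0.0397). The 72-hour levels were also above those at 12 hours, by 1.17 ± 0.26 on NM_009829 (adjusted p = 0.0104) and by 0.63 ± 0.16 on AK011429 (adjusted p = 0.0233). Both probes moved the same way at each of these times, with larger differences on NM_009829.

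In GM-CSF the NM_009829 probe read -0.35 and -0.81 in parental cells at 0 hours, -0.61 and -0.64 at 6 hours, -0.38 and -0.57 at 12 hours, 0.00 and 0.26 at 24 hours, 0.22 and 0.93 at 48 hours, then 0.05 and 1.04 at 72 hours. Every value from 24 hours on was above every earlier value, and replicate 2 was far higher than replicate 1 at 48 and 72 hours. The difference from 0 hours was 1.16 ± 0.26 at 48 hours (adjusted p = 0.0220) and 1.12 ± 0.26 at 72 hours (adjusted p = 0.00973), and 72 against 12 hours gave 1.02 ± 0.26 (adjusted p = 0.0169). AK011429 was not called in GM-CSF (0.25 at 48 hours and 0.42 at 72 hours, the second with an adjusted p of 0.140). At 72 hours it was called without GM-CSF 72 hours replicate 1 (0.69, adjusted p = 0.0290), and so was the mean of both probes with all RNAs (0.77, adjusted p = 0.0170).

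The GM-CSF rise of Ccnd2 rested on replicate 2, whose arrays were all printed in print run 2. The replicate 1 difference at 72 hours was 0.40 and the replicate 2 difference was 1.85. On print run 1 arrays alone the NM_009829 difference was 0.68 at 48 hours (adjusted p = 0.245) and 0.50 at 72 hours (adjusted p = 0.290), and on print run 2 arrays it was 1.95 and 2.10, so print run and replicate cannot be told apart here. Without GM-CSF 72 hours replicate 2 the 72-hour difference was 0.57, without parental 0 hours replicate 2 it was 0.69, and neither was called. The 48-hour call was lost without GM-CSF 48 hours replicate 2 (0.76), parental 0 hours replicate 2 (0.76) or parental 0 hours replicate 1 (1.40), and with both probes averaged (0.70, adjusted p = 0.0740). The rise at 72 against 12 hours was lost without 72 hours replicate 2 (0.48) or either 12-hour RNA (1.11 and 0.92), and on leaving out 72 hours replicate 1 it was 1.55 and still called.

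In FI-Delta cells the Ccnd2 calls at 48 hours were lost without either FI-Delta 0-hour RNA or 48 hours replicate 2 (0.74 to 1.23 on NM_009829, and 0.50 to 0.61 on AK011429, which also lost it without 48 hours replicate 1). Those at 72 hours were lost on both probes without 0 hours replicate 1 or 72 hours replicate 1 (0.83 to 1.31 and 0.50 to 0.66). The rise from 12 hours was lost on NM_009829 without 12 hours replicate 2 or 72 hours replicate 1 (0.95 to 1.40), and on AK011429 without any 1 of its 4 RNAs (12 hours replicates 1 and 2, 72 hours replicates 1 and 2; 0.55 to 0.71). With arrays scaled to equal spread neither AK011429 difference from 0 hours was called.

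Setting 72 against 12 hours, 5 of 8 probes were called in V449E cells (1.90% of all probes, 1.07% higher), 4 of 8 in FI-Delta cells (3.88%, 1.90% higher) and 2 of 8 in GM-CSF (6.95%, 3.96% higher), all of them higher. With levels weighted by number of arrays only Socs1 kept its call among the V449E rises, both GM-CSF rises were lost and the FI-Delta rises passed. With arrays scaled to equal spread all 4 FI-Delta rises and the GM-CSF rise of Ccnd2 were lost, with adjusted p-values of 0.0591 to 0.168.

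A test over all 6 times asks whether a probe varied at all within a line. In V449E cells 5 of 8 members passed it (4.46% of all probes), with adjusted F test p-values of 0.000619 for Socs1, 0.0247 for Cish, 0.0218 for Pim1, 0.000397 for Id1 and 0.00883 for Bcl2l1. In FI-Delta cells 6 of 8 passed (12.5% of all probes), with 0.0271 for Socs1, 0.00893 for Pim1, 0.00295 for Id1, 0.0153 for Bcl2l1, and 0.00333 and 0.0109 for the Ccnd2 probes. In GM-CSF 2 of 8 passed (14.3% of all probes), with 0.00349 for Id1 and 0.00206 for Ccnd2 on NM_009829. Id1 passed in all 3 lines and Pim2 in none, where its adjusted p was 0.707 in V449E cells, 0.208 in FI-Delta cells and 0.728 in GM-CSF. The V449E count was 3 without V449E 0 hours replicate 2 and 3 without V449E 12 hours replicate 1.

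At 0 hours, when all lines had been growing in IL-3, members read higher in both mutant lines than in parental cells, but none was called. Socs1 was 0.70 and 0.65 in V449E cells and 0.43 and 0.28 in FI-Delta cells, against -0.01 and 0.18 in parental cells. Pim1 was 0.27 and 0.33 in V449E cells and 0.30 and 0.49 in FI-Delta cells, against -0.13 and 0.01 in parental cells. Pim2 was 0.58 and 0.42 in V449E cells and 0.15 and -0.06 in FI-Delta cells, against -0.02 and -0.18 in parental cells. These parental values lay below both V449E values for each of the 3 genes, and below both FI-Delta values for Socs1 and Pim1.

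All 8 probes were above 0 in V449E against parental cells, with a median of 0.42 and differences of 0.15 to 0.61, and all 8 in FI-Delta against parental cells, with a median of 0.34. The median over all probes was -0.0004 and 0.0011. Both comparisons use the same parental RNAs. Limma called 0 of 8 in V449E against parental cells (0.734% of all probes, 5 members at an unadjusted p under 0.05) and 0 of 8 in FI-Delta against parental cells (0.106% of all probes, 4 members). Between V449E and FI-Delta cells at 0 hours 0 of 8 were called (0.225% of all probes, 1 member).

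The number of calls at 0 hours depended on how arrays were weighed. Each line had 2 RNAs at 0 hours, hybridised on many arrays. Weighting by arrays counts these repeat arrays as if they added RNAs. Taking each direct pair as a value of its own does so for V449E against parental cells, where other comparisons had 4 arrays. Calls made in these ways are therefore less cautious than the reported ones. With levels weighted by number of arrays 9 of the 24 tests passed, and how many of all probes passed there was not counted. From direct pairs alone 4 passed, all in V449E against parental cells. In that comparison direct pairs called 1466 of 21797 probes, against 160 in the reported fit. The 4 were Socs1 (0.50, adjusted p = 0.00385), Cish (0.43, adjusted p = 0.0132), Pim1 (0.45, adjusted p = 0.00387) and Pim2 (0.56, adjusted p = 0.00919). V449E was set against parental cells on 8 arrays, 4 in each print run. Mean differences were 0.68 in print run 1 and 0.32 in print run 2 for Socs1, 0.56 and 0.31 for Cish, 0.60 and 0.30 for Pim1, and 0.57 and 0.56 for Pim2. All of these were above 0 in both print runs, and Socs1 was called on print run 1 arrays alone (0.76, adjusted p = 0.0268), where 337 of all probes were called.

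Late in the courses the 2 mutant lines were set directly against each other, and there Socs1 and Pim2 were higher and Ccnd2 lower in V449E than in FI-Delta cells. Limma called 0 of 8 at 6 hours (0.817% of all probes, 1 member at an unadjusted p under 0.05) and 0 of 8 at 12 hours (1.11%, 2 members). It called 1 of 8 at 24 hours, lower (3.37% of all probes called, 1.89% lower). At 48 hours it called 1 higher and 2 lower (8.28% of all probes called, 3.69% higher and 4.59% lower), and at 72 hours 2 higher and 2 lower (16.7% called, 9.02% higher and 7.65% lower). At 12 hours Cish differed by -0.55 (adjusted p = 0.218) and was called from the direct pairs alone (-0.60, adjusted p = 0.0395).

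Socs1 at 72 hours was 0.54 and 0.75 in V449E cells, against -0.25 and -0.44 in FI-Delta cells. Pim2 at 72 hours was 0.29 and 0.78 in V449E cells, against -0.31 and -0.57 in FI-Delta cells. The values of the lines did not overlap for either gene. Socs1 was 1.99-fold higher (0.99 ± 0.16, adjusted p = 0.000128) and Pim2 was 1.96-fold higher (0.97 ± 0.19, adjusted p = 0.000904) in V449E cells. These 2 calls passed without any 1 of their 4 RNAs, at 0.88 to 1.09 for Socs1 and 0.74 to 1.26 for Pim2. On the 4 direct arrays Pim2 read 0.52 and 1.36 with V449E RNA in Cy5, and -0.47 and -1.21 with FI-Delta RNA in Cy5. At 0 hours, in IL-3, Pim2 was already 0.46 higher in V449E than in FI-Delta cells (limma adjusted p = 0.766). Socs1 at 0 hours read 0.70 and 0.65 against 0.43 and 0.28, also without a call. The 72-hour differences therefore include what stood at 0 hours, and neither gene was called for a different change from 0 to 72 hours.

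At 48 hours Socs1 was 0.40 and 0.74 in V449E cells, against -0.11 and -0.26 in FI-Delta cells (0.76 ± 0.16, adjusted p = 0.00329). This call was lost without V449E 48 hours replicate 2 or FI-Delta 48 hours replicate 2 (0.60 to 0.93 over the 4 such fits). Pim2 at 48 hours differed by 0.61 ± 0.19 (adjusted p = 0.0527) and passed without the replicate block (adjusted p = 0.0424). At 24 hours it differed by 0.58 and was called from the direct pairs alone (0.71, adjusted p = 0.0269).

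Ccnd2 on NM_009829 was lower in V449E than in FI-Delta cells at 24, 48 and 72 hours. At 24 hours it was -0.62 and -0.47 in V449E cells, against 0.69 and 0.44 in FI-Delta cells (-1.11 ± 0.26, adjusted p = 0.0142). At 48 hours it was -0.15 and 0.04 in V449E cells, against 0.72 and 1.18 in FI-Delta cells (-1.01 ± 0.26, adjusted p = 0.0135). At 72 hours it was -0.06 and -0.08 in V449E cells, against 1.24 and 0.83 in FI-Delta cells (-1.11 ± 0.26, adjusted p = 0.00367). No value of one line overlapped the other at these times. On AK011429 the differences were -0.68 ± 0.16 at 48 hours (adjusted p = 0.00568) and -0.57 ± 0.16 at 72 hours (adjusted p = 0.0134).

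The 24-hour Ccnd2 call was lost without any 1 of its 4 RNAs (V449E and FI-Delta 24 hours, replicates 1 and 2; -1.20 to -0.93). That at 48 hours was lost on NM_009829 without V449E replicate 1 or FI-Delta replicate 2 (-1.24 to -0.90) and on AK011429 without V449E replicate 2 or FI-Delta replicate 2 (-0.79 to -0.60). The 72-hour call was lost on both probes without FI-Delta replicate 1 (-1.37 to -0.98 and -0.67 to -0.51), and on AK011429 without V449E replicate 2 and with arrays scaled to equal spread. On AK011429 the 24-hour difference of -0.49 was called from direct pairs (-0.55, adjusted p = 0.0160), on print run 1 arrays (-0.52, adjusted p = 0.0258) and with both probes averaged (-0.80, adjusted p = 0.0195).

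**Figure D3:**
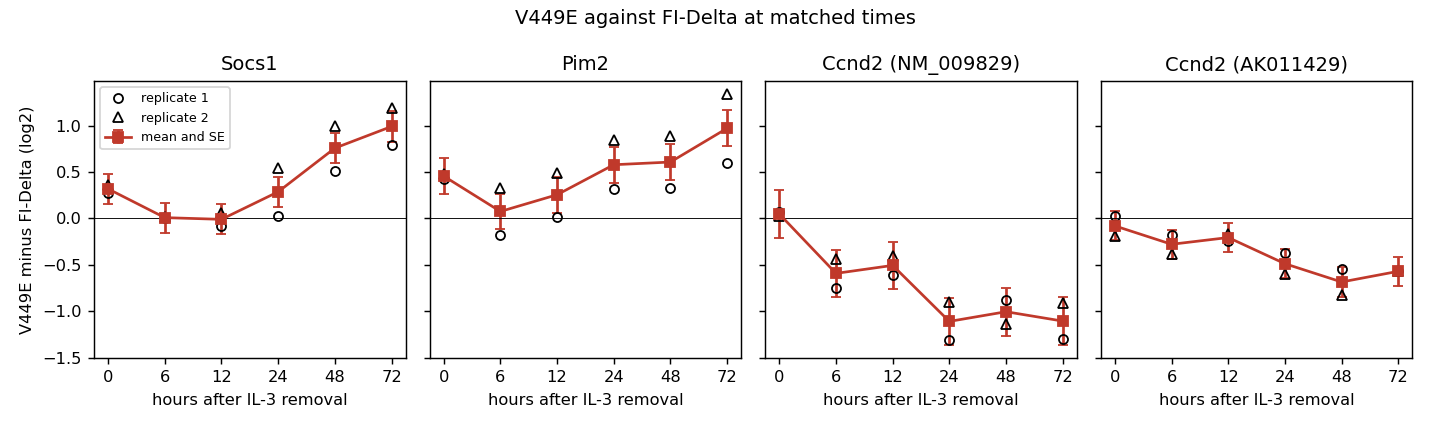
For Socs1, Pim2 and both Ccnd2 probes the vertical axis gives the log2 difference V449E minus FI-Delta at matched times, with open symbols for replicates 1 and 2 and a red square for the mean with its SE, and the horizontal axis gives hours after IL-3 removal. Socs1 and Pim2 reach 0.99 and 0.97 at 72 hours, and both Ccnd2 probes lie below 0 from 6 hours on.

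FI-Delta cells were also set against parental cells in GM-CSF at each time after the wash, and no member differed enough to be called. Limma called 0 of 8 at 6 hours (0.491% of all probes), 12 hours (0.307%), 24 hours (0.174%), 48 hours (0.289%) and 72 hours (0.885%), and 6 of these 40 tests had an unadjusted p under 0.05. The members' median difference was 0.09, 0.19, 0.15, 0.19 and 0.14 over the 5 times. Ccnd2 on AK011429 at 48 hours was 0.51 and 0.61 in FI-Delta cells, against -0.09 and 0.14 in GM-CSF, a difference of 0.54 that did not pass (adjusted p = 0.164). Pim1 at 72 hours was 0.37 and 0.16 in FI-Delta cells, against -0.04 and -0.22 in GM-CSF, a difference of 0.40 that did not pass either (adjusted p = 0.187).

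A call in one line and none in another is not a difference between lines, so the change from 0 hours was compared between lines directly. None of the 120 such tests passed by limma, and 21 had an unadjusted p under 0.05. Of all probes, 0.0459% were called in the change of V449E cells minus that of GM-CSF at 24 hours, 0.239% at 48 hours and 0.629% at 72 hours, and none at 6 or 12 hours. In the change of V449E minus that of FI-Delta cells 0.00918%, 0.385% and 3.59% were called at 24, 48 and 72 hours, and in that of FI-Delta cells minus GM-CSF 0.00459% at 48 and at 72 hours. The smallest adjusted p was 0.0792, for Ccnd2 on NM_009829 at 72 hours, where the change in V449E cells minus that in FI-Delta cells was -1.15 with a 95% interval of -1.91 to -0.40. For Socs1 at 72 hours the same contrast was 0.67 with an interval of 0.20 to 1.15 (adjusted p = 0.109). Both passed with levels weighted by number of arrays (adjusted p = 0.0270 and 0.0397). Leaving out GM-CSF 72 hours replicate 1 gave 1 call among the 120.

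For the early fall the direct comparison of lines was less precise than the fall itself. At 12 hours Socs1 changed by -0.48 more in V449E cells than in GM-CSF, with an unadjusted 95% interval of -0.95 to -0.0007, and Id1 by -0.61 more, with an interval of -1.19 to -0.03. Cish changed by -0.80 more in V449E cells than in GM-CSF, with an interval of -1.35 to -0.25. Pim1 differed by -0.23 with an interval of -0.62 to 0.17, and Bcl2l1 by -0.37 with an interval of -0.81 to 0.07. None of the 5 passed after adjustment over all probes, where 0% of all probes were called in that contrast.

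**Figure D4:**
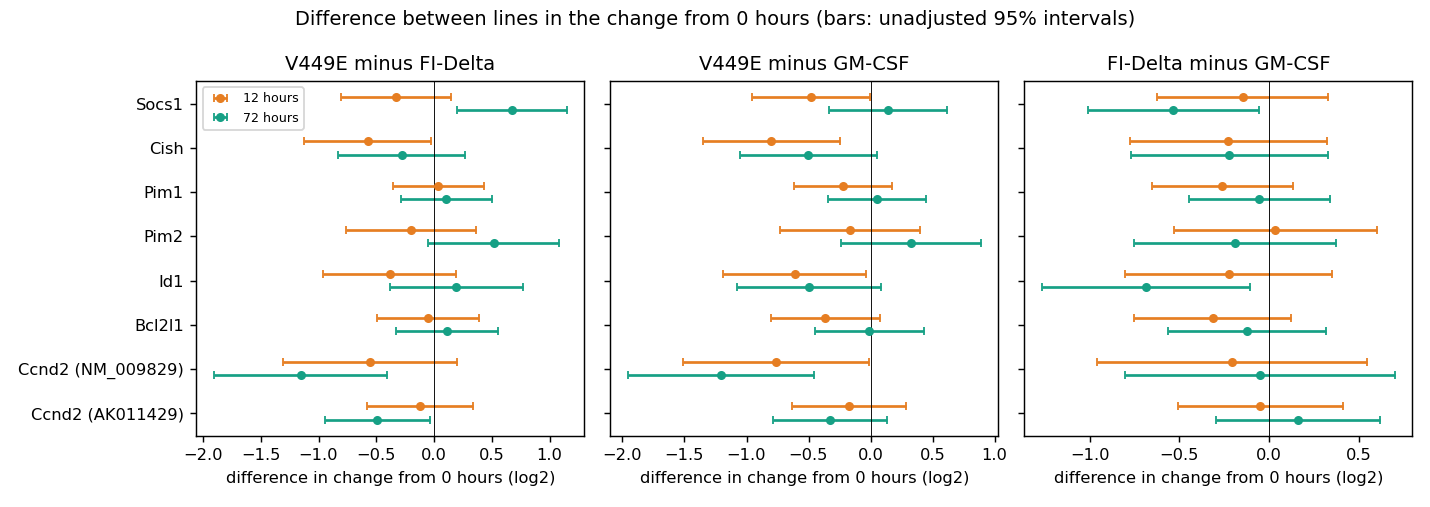
Each point is the log2 difference between 2 lines in their change from 0 hours, at 12 hours and at 72 hours, for the 8 probes (rows), and the bars are unadjusted 95% intervals. The Ccnd2 NM_009829 points at 72 hours lie at -1.15 for V449E minus FI-Delta and at -1.21 for V449E minus GM-CSF, and no point passed after adjustment.

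Ordered by mean level over the 18 conditions, the members fell into different patterns. Socs1 was highest in V449E cells at 0 hours (0.67) and lowest in GM-CSF at 12 hours (-0.43). Cish ran from 0.36 in FI-Delta cells at 72 hours to -0.71 in V449E cells at 12 hours, and Pim1 from 0.39 in FI-Delta cells at 0 hours to -0.41 in GM-CSF at 12 hours. Pim2 had its 6 highest conditions all in V449E cells, from 0.53 at 72 hours, and was lowest in FI-Delta cells at 72 hours (-0.44).

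Id1 was highest in V449E cells at 48 hours (0.45) and lowest in the same cells at 12 hours (-0.78). Bcl2l1 ran from 0.40 in V449E cells at 72 hours to -0.35 in FI-Delta cells at 12 hours. Ccnd2 ran from 1.03 in FI-Delta cells at 72 hours to -0.65 in V449E cells at 12 hours on NM_009829, and between the same conditions on AK011429 (0.58 to -0.26). No 2 neighbours in any of these orders differed by more than 2 SE, and the largest gap between neighbours was 0.41 on NM_009829, so only conditions far apart in the order can be told from each other.

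Pairs of members varied together to different degrees over the 36 levels, which share arrays and a common mean, so these correlations are descriptions. The highest was between the Ccnd2 probes (Pearson r = 0.889), followed by Pim1 with Bcl2l1 (0.779) and Id1 with Bcl2l1 (0.759). Socs1 correlated with Bcl2l1 at 0.682, with Pim1 at 0.641 and with Pim2 at 0.617. Pim2 stood apart, with -0.172 to Cish, -0.038 to Id1, and -0.354 and -0.391 to the Ccnd2 probes.

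Outside the members, the genes whose levels ran most like each of them over the same 36 levels were found by the highest Pearson r. For Socs1 they were Ptpn9 (0.882), Myt1l (0.855) and Man2a2 (0.843), and for Pim2 Nudt7 (0.894), Ctnna2 (0.883) and Tcrb-V8.2 (0.856). For Id1 they were Bysl (0.885), a ribosome biogenesis factor, Slc25a12 (0.868), a mitochondrial carrier, and Prkar2a (0.852), a protein kinase A subunit. For Ccnd2 they were Slfn1 (0.871), Slfn4 (0.870) and 4930515L19Rik (0.860).

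Pim1 was most like Diaph2 (0.847), Rsu1 (0.778) and Adora3 (0.760), an adenosine receptor gene. Adora3 was also among the closest to Bcl2l1 (0.819), beside both probes of Enah (0.871 and 0.813). Cish had the weakest likeness, with Col16a1 (0.732), Bcar3 (0.715) and Dusp6 (0.712), the ERK phosphatase gene.

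Genes upstream of STAT5 gave few calls. Of 8 probes for receptor chains and kinases (8 of 10 listed genes), 1 was higher in FI-Delta cells at 12 hours, where 5.06% of all probes were called, and 1 was higher and 1 lower at 24 hours (1.42% of all probes), at 48 hours (4.44%) and at 72 hours (15.3%). In GM-CSF 1 was higher and 1 lower at 48 hours (1.32% of all probes) and 1 higher at 72 hours (5.47%). In V449E cells, where at most 1.45% of all probes were called at any time, none of the 8 was called. Csf2ra, the GM-CSF receptor alpha chain, was higher at 72 hours by 0.89 ± 0.15 in FI-Delta cells (adjusted p = 0.000364) and by 0.89 ± 0.15 in GM-CSF (adjusted p = 0.000862). Jak2, the receptor's kinase, was lower at 72 hours in FI-Delta cells by -0.65 ± 0.11 (adjusted p = 0.000246) and at 48 hours in GM-CSF by -0.44 ± 0.11 (adjusted p = 0.0422). Tyk2, a related kinase, was higher in FI-Delta cells at 12 hours (0.46 ± 0.13, adjusted p = 0.0473). The list's median lay between -0.10 and 0.18 in the 15 comparisons with 0 hours.

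Of 20 probes for 16 further inhibitor and phosphatase genes, 1 was higher and none lower in V449E cells at 6 hours (0.702% of all probes called), 12 hours (1.28%) and 24 hours (1.45%). In FI-Delta cells 1 was higher at 6 hours (0.725% of all probes), 3 were higher and 2 lower at 12 hours (5.06%), 1 was higher at 24 hours (1.42%), 2 at 48 hours (4.44%) and 4 at 72 hours (15.3%). In GM-CSF 2 were higher at 6 hours (0.440% of all probes), 2 at 12 hours (2.92%), 1 at 24 hours (1.10%), 1 at 48 hours (1.32%) and 2 at 72 hours (5.47%). The V449E call at 6 hours was Ptpn6, the phosphatase SHP-1 (0.49 ± 0.07 at 6 hours, adjusted p = 0.000941). The same probe was also higher in GM-CSF at 72 hours (0.56 ± 0.07, adjusted p = 3.43e-05) and in FI-Delta cells at 24 hours (0.47 ± 0.07, adjusted p = 0.00204). Another Ptpn6 probe was higher in FI-Delta cells at 72 hours (0.60 ± 0.13, adjusted p = 0.00194).

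Pias3, an inhibitor of STAT DNA binding, was higher at 12 hours in FI-Delta cells (0.29 ± 0.06, adjusted p = 0.0108) and in GM-CSF (0.24 ± 0.06, adjusted p = 0.0417). Sh2b3, the adaptor LNK that restrains JAK2, was higher in GM-CSF at 72 hours (0.40 ± 0.09, adjusted p = 0.00917). The list's median stayed between -0.04 and 0.09.

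Relatives of the members in the same families were measured on 10 probes (10 of 12 listed genes). In V449E cells 1 was lower at 6 hours (0.702% of all probes called). In FI-Delta cells 1 was higher at 12 hours (5.06% of all probes), 2 at 48 hours (4.44%) and 2 at 72 hours (15.3%), and in GM-CSF 2 were higher at 48 hours (1.32%) and 2 at 72 hours (5.47%). Ccnd3, the cyclin D3 gene, was the one lower in V449E cells at 6 hours (-0.80 ± 0.16, adjusted p = 0.0159). Id2 was higher at 72 hours by 1.01 ± 0.21 in FI-Delta cells (adjusted p = 0.00155) and by 1.66 ± 0.21 in GM-CSF (adjusted p = 3.15e-05). Mcl1, another survival gene, was higher at 72 hours by 0.62 ± 0.10 in FI-Delta cells (adjusted p = 0.000234) and by 0.60 ± 0.10 in GM-CSF (adjusted p = 0.000898). Ccnd1 was higher in GM-CSF at 48 hours (0.42 ± 0.09, adjusted p = 0.0240). The median over this list lay between 0.002 and 0.18.

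Further genes described as STAT5 targets (17 probes, 13 of 15 listed genes, some of them also in the lists above) held 3 probes lower and none higher in V449E cells at 6 hours (0.702% of all probes called) and 1 lower at 12 hours (1.28%). In FI-Delta cells 1 was lower at 6 hours (0.725% of all probes), 1 higher and 2 lower at 12 hours (5.06%), 1 higher and 1 lower at 48 hours (4.44%), and 1 higher and 2 lower at 72 hours (15.3%). In GM-CSF 1 was lower at 6 hours (0.440% of all probes), 1 higher at 48 hours (1.32%) and 1 higher at 72 hours (5.47%). Myc, the growth regulator, was lower in V449E cells at 6 hours (-0.83 ± 0.16, adjusted p = 0.00839) and in FI-Delta cells at 12 hours (-0.94 ± 0.16, adjusted p = 0.00123). Tfrc, the transferrin receptor gene, was lower at 6 hours in V449E cells (-0.73 ± 0.11, adjusted p = 0.00109) and in GM-CSF (-0.64 ± 0.11, adjusted p = 0.00653). Il2ra was lower in FI-Delta cells at 72 hours (-0.50 ± 0.10, adjusted p = 0.00185). This list's median was -0.18 in V449E cells, -0.10 in FI-Delta cells and -0.14 in GM-CSF at 12 hours, against 0.0063, 0.0103 and 0.0129 over all probes.

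Markers of maturing myeloid cells were called in FI-Delta cells and in GM-CSF at 48 and 72 hours, the times of the Ccnd2 calls, and in GM-CSF 3 macrophage probes were already higher at 24 hours (1.10% of all probes called). At 72 hours, where 15.3% of all probes were called in FI-Delta cells and 5.47% in GM-CSF, 5 of 9 macrophage marker probes were higher and 1 lower in FI-Delta cells, with a median of 0.62, and 6 were higher and none lower in GM-CSF, with a median of 1.14. Of 6 late granulocyte marker probes 5 were higher in FI-Delta cells (median 1.53) and 2 in GM-CSF (median 0.37), and of 5 mast cell and basophil marker probes 4 were lower in each. In V449E cells at 72 hours no probe on the array was called, so no list could hold a call, and the medians of the macrophage, late granulocyte and mast cell lists were 0.29, 0.04 and -0.06. In V449E cells 1 macrophage probe was already higher at 6 hours (0.702% of all probes called), with a list median of -0.07. At 24 hours 3 macrophage probes were higher in V449E cells (1.45% of all probes called).

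Among these, Ctss, a macrophage protease gene, was higher at 72 hours by 1.30 in FI-Delta cells and by 1.54 in GM-CSF, and Mmp8, a granulocyte collagenase gene, by 1.47 and 2.20. Cpa3, a mast cell protease gene, was lower by -2.87 and -1.70. In bulk RNA fewer cells of a type and less RNA per cell cannot be told apart, and the part of these markers in the Ccnd2 and Socs1 results was not tested.

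At 12 hours, when Socs1, Pim1, Id1 and Bcl2l1 were called low in both mutant lines, the macrophage, late granulocyte and mast cell lists had no call in V449E cells (1.28% of all probes called), FI-Delta cells (5.06%) or GM-CSF (2.92%), but their medians were not all near 0. The macrophage median was 0.20 in V449E cells, 0.27 in FI-Delta cells and 0.03 in GM-CSF, the late granulocyte median was -0.09, 0.42 and -0.70, and the mast cell median was -0.09, -0.13 and 0.08, and their part in the early results was not tested. Of 7 primary granule and progenitor marker probes, none was called at 12 hours in V449E or FI-Delta cells and 1 was lower in GM-CSF. At 72 hours 2 were lower in FI-Delta cells (15.3% of all probes called) and 1 in GM-CSF (5.47%). In V449E cells no probe on the array was called at 72 hours. At 24 hours 1 of the 7, Myb, was lower in V449E cells (-0.58 ± 0.14, limma adjusted p = 0.0359), where 1.45% of all probes were called. Of 2 erythroid marker probes 1 was lower in GM-CSF at 48 and 72 hours, and neither of 2 lymphoid marker probes was called at any time in any line. At 0 hours, set against parental cells, 1 macrophage probe was higher in V449E cells with a list median of 0.46, and none was called in FI-Delta cells with a list median of 0.60. Of 6 late granulocyte probes 2 were lower in V449E cells (median -1.75) and 1 was higher in FI-Delta cells (median -0.30), and 1 mast cell probe was higher in V449E cells (median 0.15). Of all probes 0.734% were called in V449E and 0.106% in FI-Delta against parental cells, and the part of these markers in the differences of the members at 0 hours was not tested.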

How the data were processed

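FDB1 RNA was measured on spotted 2-colour arrays. The values the authors deposited are log ratios, taken here as log2. Per the labels the arrays were normalised and the spots of 2 print runs (90 and 26 arrays) put in 1 order, and the submitters' processing notes name limma without a version. Background correction and normalisation method are not given in the sources used here. Of 23040 probes, 1243 controls were left out and 21797 tested, of which 16651 had 1 symbol, 137 several and 5009 none. Array medians ran from -0.0165 to 0.0106. Dye-swapped arrays correlated negatively in each of the 58 pairs (r from -0.653 to -0.0327), which does not bear on the direction.

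The 2 arrays of a pair were turned to 1 direction and averaged, and the 36 RNA levels were solved by least squares separately for each replicate. These levels entered limma (version 3.58.1, functions lmFit and eBayes, in R 4.3.3), with the replicate as a block. Residual degrees of freedom were 17 and prior ones 5.99. Tests were 2-sided, with Benjamini-Hochberg adjustment within a comparison. The pairing comes from the arrays, each of which joins RNAs of 1 replicate number. A condition lay on 8 to 32 arrays. The reported fit gave every level equal weight, so its SEs rest on 2 RNAs per condition and not on the number of arrays. The signal over background is unknown. The fit was tested on simulated data.

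All 8 member probes are named in each family of comparisons. From the pathway and marker lists (receptor and kinase, inhibitors and phosphatases, family relatives, other STAT5 targets, macrophage, late granulocyte, primary granule and progenitor, mast cell and basophil, erythroid, lymphoid) up to 3 probes per list and line with the smallest adjusted p could be named. For likeness the 3 probes of other genes with the highest Pearson r were named. The members, lists and the 72 against 12 hours contrast were chosen with earlier results of these data known. Alternatives tried were no block, direct pairs alone, levels weighted by arrays, probes averaged per gene, arrays scaled to equal spread, each print run alone and leaving out each RNA. Promoters are from RefSeq for GRCm38.p6.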

Additional observations from a re-analysis of the deposited data

How the results depend on the processing

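No difference of a member called in the reported fit changed sign under any alternative. Of the 28 calls against 0 hours or between lines, 16 passed in all 6 alternatives that gave a test and kept every RNA, and of the 11 calls for 72 against 12 hours 1 (Socs1 in V449E cells) passed in all 4 run there. Of these, 2 (Socs1 and Pim2, V449E against FI-Delta at 72 hours) also passed without any 1 of their RNAs. The fit without 1 RNA has fewer samples by construction, with 1 RNA left in that condition. Without either 0-hour RNA of a mutant line the calls over all probes at 6 and 12 hours fell as well. Without 1 RNA the number of calls against 0 hours ran from 0 to 7 in V449E cells (reported 7), from 1 to 11 in FI-Delta cells (reported 11) and from 0 to 3 in GM-CSF (reported 2). It ran from 6 to 11 for 72 against 12 hours (reported 11), from 0 to 1 for the difference between lines in their changes (reported 0) and from 3 to 5 for the F test in V449E cells (reported 5). Print run 1 arrays alone leave 1 RNA in each GM-CSF condition after the wash, so the loss of the GM-CSF calls there cannot be told apart from the loss of replicate 2. The lines at 0 hours keep 2 RNAs each on print run 1 arrays and had 1 call (reported 0). It was Socs1 in V449E against parental cells, where 337 of all probes were called (reported 160). From direct pairs alone the lines at 0 hours had 4 calls, all in V449E against parental cells, where 1466 of all probes were called. Weighting by arrays lets repeat arrays of the same RNAs add weight, though a condition holds 2 RNAs. Direct pairs do so in V449E against parental cells, which were compared on 8 arrays where other comparisons had 4. With levels weighted by number of arrays there were 9 calls at 0 hours, 2 differences between lines and 5 calls for 72 against 12 hours, which with arrays scaled to equal spread had 6. Calls over all probes were not counted with weighted levels, nor for 72 against 12 hours with scaled arrays. Scaling also changed the calls over all probes against 0 hours. They fell from 1102 to 458 in FI-Delta cells at 12 hours and from 3326 to 1581 at 72 hours. In V449E cells at 6 hours they rose from 153 to 546. The member counts under these settings are therefore not particular to the members. The other causes were not tested. With no replicate block the pairing of the replicates was ignored, and 2 more differences passed: Socs1 in FI-Delta cells at 48 hours (-0.54, adjusted p = 0.0469) and Pim2 in V449E against FI-Delta cells at 48 hours (0.61, adjusted p = 0.0424). It changed no other call. Print run 2 arrays alone leave 1 RNA a condition in most comparisons and gave values without a test, of which 25 moved by more than the spread between replicates and 71 did not. The smallest difference called among the members was 0.48, and the signal over background is unknown.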
